A study of Rattus norvegicus with 20 samples.

Results

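The genes described here make cholesterol and fatty acids, sense sterols, or respond to oxysterols, and they were measured in the lungs of rats that had inhaled crystalline silica. The group was set by a list of 47 gene symbols. Of these, 39 had a row in the expression table, and 38 were kept because their detection p-value was under 0.01 on at least 8 of the 20 arrays, out of 21792 genes in the table. They comprised 16 enzymes of sterol synthesis, 5 regulators of sterol sensing and transfer, 8 genes of fatty acid synthesis, and 9 oxysterol and LXR genes. Elovl6, a fatty acid elongase, was detected on 0 arrays and was set aside. The table writes symbols in capitals (CH25H, FDPS, TM7SF2, ABCA1), and rat symbols are used below. The symbols Insig1, Elovl1, Sc5d, Scd2, Lss, Mvk, Fasn and Cyp51a1 had no row. The gene of Cyp51a1 was present under its rat symbol Cyp51, and Sc5d under the older name Sc5dl. Mylip passed with the fewest arrays (17), followed by Tm7sf2 with 18 and Acaca, Cyp51 and Soat1 with 19, and the other kept genes were detected on all 20.

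All 20 rats were 3-month-old males of the strain labelled CDF Fisher 344, and total RNA of whole lung was hybridized to 1 Illumina bead array per rat. The silica group held 8 rats (identifiers 81 to 88), which inhaled crystalline silica, a mineral dust, at a concentration of 15 mg/m3 over 5 days of 6 h each, and were killed 16 h after the final session. The air group held 12 control rats, listed with the same hours and days. Their identifiers form 3 blocks of 4, called runs below (89 to 92, 105 to 108 and 137 to 140), and the first run follows on from the silica rats. All 7 lung epithelial markers examined were detected on all 20 arrays, and 1 of them rose and 2 fell in silica lungs. Between 9434 and 10840 genes were detected per array. Silica rat 86 and air rats 106 and 139 had the fewest, together with the highest median intensities before normalization. Levels below are log2 intensities after background correction and quantile normalization, and they compare a gene between rats, not one gene with another. Calls are from limma's moderated test with a Benjamini-Hochberg adjusted p under 0.05 over the 10488 genes tested.

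Cholesterol is built from acetyl-CoA through mevalonate, the isoprenoid farnesyl diphosphate, squalene and lanosterol. The transcription factor SREBP-2 drives most of these enzymes when membranes are short of sterol, and SREBP-1 drives fatty acid synthesis. SREBPs are held in the endoplasmic reticulum by Scap and the Insig proteins while sterols are plentiful. Oxysterols, oxidized forms of cholesterol, promote that retention and also activate the nuclear receptors LXR alpha and beta, which switch on cholesterol exporters such as Abca1 and Abcg1. In the lung, type 2 cells need fatty acids and cholesterol for surfactant, and macrophages take up surfactant lipid and export cholesterol.

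The start regions of the sterol enzymes were examined because SREBPs act on promoters together with NF-Y, a factor that binds the letters CCAAT. RefSeq promoters of the rat assembly GRCr8 (300 bases, 250 before to 50 after the annotated start) matched 31 of the 38 genes with 34 promoters, 13 of them for sterol enzymes. Searching both strands, CCAAT was present in 10 of the 13 sterol promoters (76.9%), against 37.5% of all 33469 promoters in the table. It stood in 4 of 5 promoters of regulators, 4 of 6 of fatty acid genes (66.7%) and 4 of 10 of oxysterol and LXR genes. Of these last 4 promoters, 2 are overlapping promoters of Apoe that share the same box. Over genes that rose in silica lungs the count was 5 of 12 (41.7%). The sterol element core TCACNCCAC was in 0 of the 34 and in 374 of all promoters (1.12%), and with an A before it in 0 and 90 (0.269%). The LXR element, 2 copies of AGGTCA with 4 letters between them, was in 0 of the 34 and in 2 of all promoters (0.00598%). Exact matches of either element were rare in all promoters, so 0 of 34 cannot show that these genes lack such elements. A match is a description of letters, not of binding.
Among the sterol promoters CCAAT stood in 4 of 6 whose enzymes rose (66.7%) and in 6 of 7 whose enzymes did not pass (85.7%). Start regions of 4 sterol enzymes are shown 5′ to 3′ in the direction of the gene, with CCAAT or its complement ATTGG in capitals, to set enzymes that rose with and without a box beside one that did not pass. Fdps (chr2:176804767-176805066, minus strand) and Tm7sf2 (chr1:212789492-212789791, minus strand) rose and hold 2 boxes each, which start at −130 and −85 in Fdps and at −89 and 18 in Tm7sf2, counted from the gene's first base as 0. Acat2 (chr1:50100590-50100889, plus strand) rose and holds 0, as does Dhcr7. Nsdhl (chrX:155817110-155817409, plus strand) did not pass and holds 5.
Fdps: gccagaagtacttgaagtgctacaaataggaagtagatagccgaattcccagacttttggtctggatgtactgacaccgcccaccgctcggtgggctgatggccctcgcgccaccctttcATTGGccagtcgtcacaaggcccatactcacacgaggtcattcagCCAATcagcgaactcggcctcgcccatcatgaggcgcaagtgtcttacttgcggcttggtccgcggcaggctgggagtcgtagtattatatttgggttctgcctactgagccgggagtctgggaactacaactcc
Tm7sf2: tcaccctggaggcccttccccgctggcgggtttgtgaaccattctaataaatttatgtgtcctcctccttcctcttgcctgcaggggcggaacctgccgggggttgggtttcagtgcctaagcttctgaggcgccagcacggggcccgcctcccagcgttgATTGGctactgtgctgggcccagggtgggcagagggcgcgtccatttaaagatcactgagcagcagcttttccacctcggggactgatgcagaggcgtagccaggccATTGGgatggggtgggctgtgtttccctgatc
Acat2: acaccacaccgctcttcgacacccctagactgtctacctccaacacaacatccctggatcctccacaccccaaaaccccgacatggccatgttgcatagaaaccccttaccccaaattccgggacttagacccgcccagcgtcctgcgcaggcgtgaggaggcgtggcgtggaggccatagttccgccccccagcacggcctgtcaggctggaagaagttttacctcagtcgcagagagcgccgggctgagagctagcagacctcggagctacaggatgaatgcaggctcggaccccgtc
Nsdhl: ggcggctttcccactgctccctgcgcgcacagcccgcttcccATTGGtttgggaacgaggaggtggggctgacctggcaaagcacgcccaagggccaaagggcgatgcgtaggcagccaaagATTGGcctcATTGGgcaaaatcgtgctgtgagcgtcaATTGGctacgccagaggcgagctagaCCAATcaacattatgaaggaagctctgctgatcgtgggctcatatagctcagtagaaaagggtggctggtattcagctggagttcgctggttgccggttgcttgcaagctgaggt

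Silica lungs carried more RNA of a subset of these genes, and less of none that passed the test. Of the 38 genes, 16 rose (42.1%), 0 fell and 22 did not pass, where 11.7% of all genes tested rose and 12.7% fell. The 38 were listed with earlier results of these data known, so this contrast with all genes is a description and was not tested. The rows named Scd1 and Scd, both among the 16, may stand for the same gene. Without adjustment, limma's p was under 0.05 for 21 of the 38 with higher and for 0 with lower values in silica lungs, where 16.6% of all genes tested were higher and 19.8% lower at that p. The median log2 fold change, silica minus air, was 0.17 over the 38 genes and −0.0171 over all genes tested. The values were positive for 35 of the 38 and for 45.4% of all genes. Most rises were small: Ch25h stood at 1.61 and Tm7sf2 at 0.67, and the other 14 lay between 0.20 and 0.44. The place of Tm7sf2 depended on the background correction: it stood at 0.14, below Fdps at 0.48, with the default estimate of background spread, and at 0.31, below Fdps at 0.41, on the authors' deposited log2 values. On Fdps and Ch25h every silica array exceeded every air array, which 1.83% of all genes tested did. Because whole lung was measured, fewer or more cells of a type and less or more RNA per cell cannot be told apart.

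The calls depended on which air rats served as controls. Against air rats 89 to 92 alone 9 of the 38 genes rose (23.7%) and 0 fell, where 4.15% of all genes rose and 3.18% fell. Against air rats 105 to 108, 12 rose and 0 fell, where 8.40% of all genes rose and 8.95% fell. Against air rats 137 to 140, 12 rose and 0 fell, where 11% of all genes rose and 11.1% fell. Tm7sf2, Fdps and Ch25h rose against each of the 3 runs, as did 322 of the 10488 genes tested. The 3 comparisons share the silica arrays. No gene of the 38 passed the test of air runs against each other, which 46 genes (0.439%) passed, although 7 of the 38 had an unadjusted limma p under 0.05 there, which 13.0% of all genes tested had. The smallest adjusted p values among the 38 were 0.0502 for Osbp and 0.0820 for Mvd. What the runs stand for is not given in the labels used here.

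**Figure D1:**
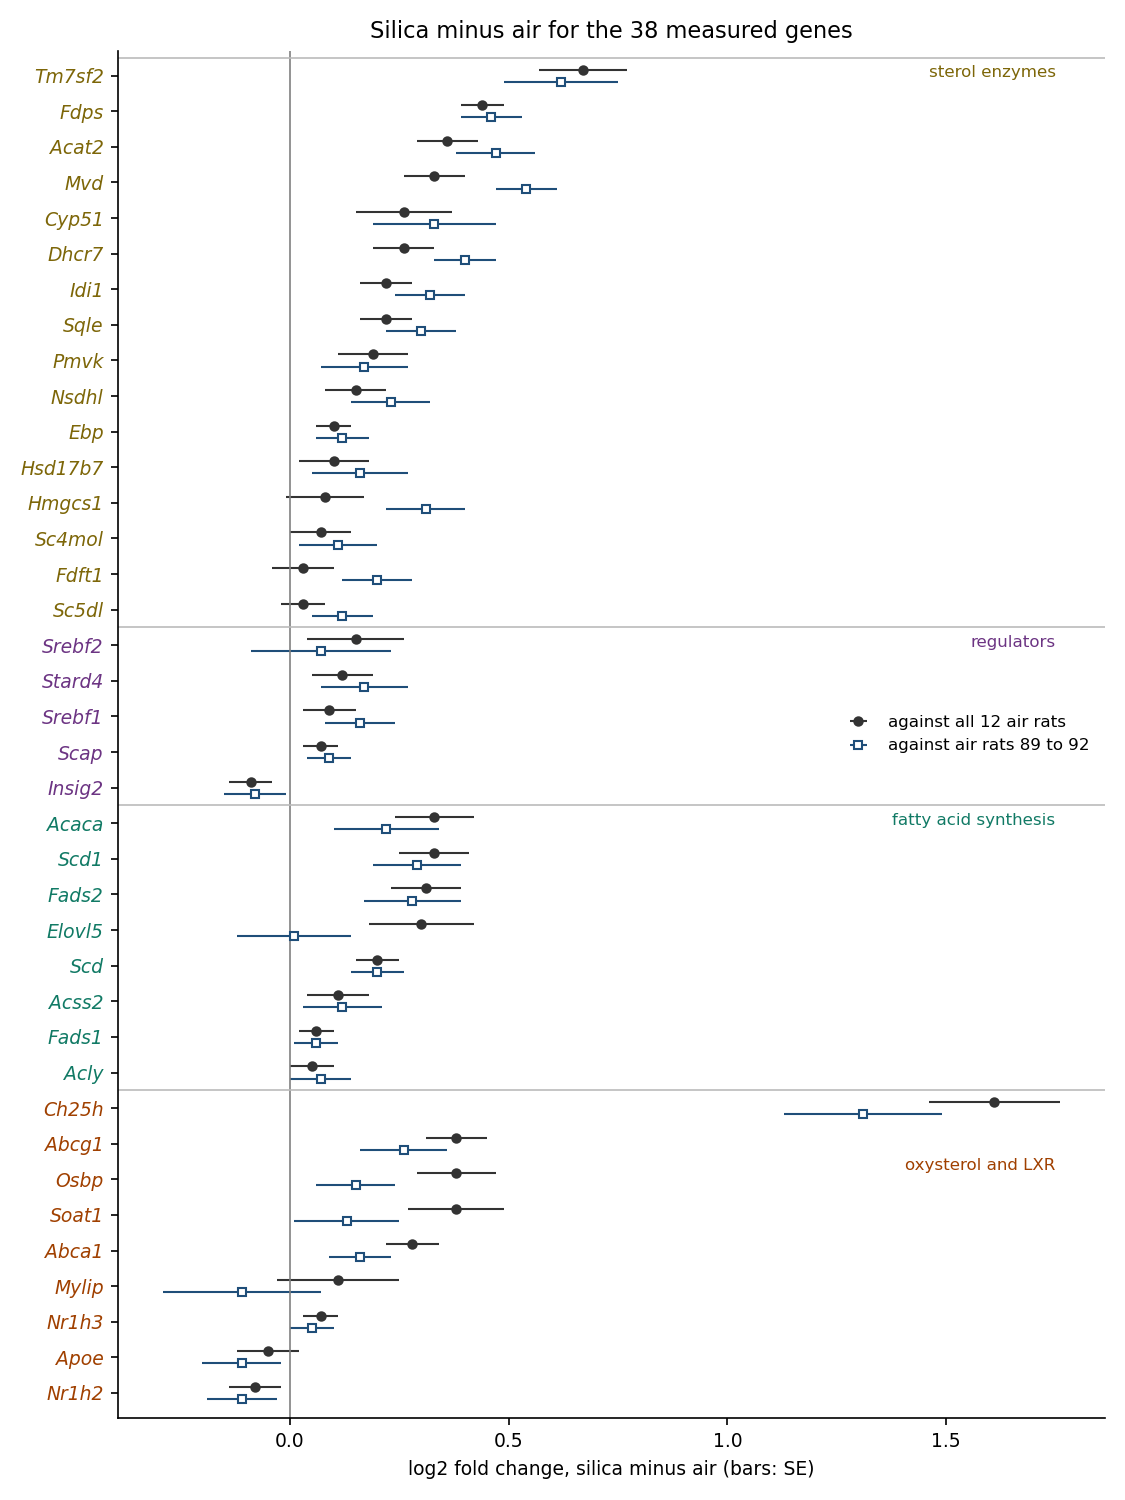
Log2 fold change, silica minus air, of the 38 genes by role, against all 12 air rats (filled circles) and against air rats 89 to 92 alone (open squares); bars are standard errors. Sterol enzymes mostly lie further right against air rats 89 to 92 and oxysterol genes further left, and Ch25h is far right in both.

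Among the sterol enzymes 7 of 16 rose (43.8%), and the median log2 fold change was 0.20, or 0.10 with the default estimate of background spread and 0.11 on the authors' deposited log2 values. Under median scaling 4 rose (median 0.16). All 16 values were positive, 14 of them under median scaling and 13 without air rats 89 to 92. Taken by step, 4 of 6 enzymes up to farnesyl diphosphate rose (median 0.27), 1 of 2 around squalene (median 0.12) and 2 of 8 after lanosterol (median 0.12). Against air rats 89 to 92 the counts were 5, 1 and 2 and the medians 0.39, 0.25 and 0.19. No difference between steps was tested.

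Fdps (ILMN_1350983), farnesyl diphosphate synthase, makes the isoprenoid from which both sterols and the lipid anchors of prenylated proteins derive. Its log2 intensity was 10.54, 10.28, 10.53, 10.39, 10.63, 10.32, 10.22 and 10.25 in silica rats 81 to 88. In air rats it ranged from 9.78 through a median of 9.98 to 10.08, so the groups did not overlap. Means were 10.40 ± 0.15 in silica (SD, n = 8) and 9.96 ± 0.09 in air lungs (SD, n = 12), a log2 fold change of 0.44 ± 0.05 (SE, limma adjusted p = 2.03e-06). It was 0.46, 0.42 and 0.44 against the 3 air runs in order of identifier.

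Tm7sf2 (ILMN_1530410), a sterol reductase that acts just after lanosterol, read 6.70, 6.69, 6.74, 6.73, 6.89, 6.21, 7.01 and 6.60 in silica rats 81 to 88. In air rats it ranged from 5.71 through 6.01 to 6.43. All silica rats but rat 86 lay above every air rat. The difference was 0.67 ± 0.10 (limma adjusted p = 1.93e-05), a 1.59-fold rise, and the gene was detected in 8 of 8 silica and 10 of 12 air rats. It is a dim gene whose row averages several probes, and with limma's default estimate of the background spread the difference was 0.14 (adjusted p = 1.3e-05).

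The other rises at the start of the pathway were those of Acat2, Mvd and Idi1. Acat2 (ILMN_1361128), the cytosolic thiolase that joins acetyl-CoA units, ranged from 9.74 through 10.11 to 10.34 in silica rats and from 9.38 through 9.71 to 9.88 in air rats. Of the silica rats 5 exceeded all air rats, and the difference was 0.36 ± 0.07 (limma adjusted p = 0.00066). Mvd (ILMN_1368863), which decarboxylates mevalonate diphosphate, ranged from 8.25 through 8.36 to 8.50 in silica rats and from 7.62 through 8.08 to 8.28 in air rats. Here 6 silica rats exceeded all air rats, and the difference was 0.33 ± 0.07 (limma adjusted p = 0.00143). The means of Mvd in the 3 air runs were 7.83, 8.17 and 8.12, lowest in rats 89 to 92, against which the difference was 0.54 (limma adjusted p = 3.89e-05). Against rats 105 to 108 neither Acat2 (0.25, limma adjusted p = 0.0618) nor Mvd (0.20, limma adjusted p = 0.0576) passed. Idi1 (ILMN_1367519), the isomerase of isopentenyl diphosphate, ranged from 9.24 through 9.35 to 9.69 in silica rats and from 8.96 through 9.21 to 9.37 in air rats. The groups overlapped, with 4 silica rats above all air rats, and the difference was 0.22 ± 0.06 (limma adjusted p = 0.0141).

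Later steps gave Sqle and Dhcr7. Sqle (ILMN_1364854), squalene epoxidase, ranged from 9.34 through 9.49 to 9.80 in silica rats and from 9.09 through 9.30 to 9.46 in air rats. The difference was 0.22 ± 0.06 (limma adjusted p = 0.013), with 5 silica rats above all air rats. Dhcr7 (ILMN_1349202), the reductase of the last step, ranged from 8.66 through 8.83 to 8.97 in silica rats and from 8.30 through 8.61 to 8.88 in air rats. Its difference was 0.26 ± 0.07 (limma adjusted p = 0.00567), with 3 silica rats above all air rats. Idi1, Sqle and Dhcr7 lost their calls when arrays were scaled by their medians (adjusted p = 0.252, 0.189 and 0.101). Without air rats 89 to 92 Idi1 (adjusted p = 0.0609) and Sqle (adjusted p = 0.0592) did not pass either.

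The remaining 9 enzymes did not pass, with log2 fold changes from 0.03 to 0.26. Cyp51, the demethylase of lanosterol, was at 0.26 (limma adjusted p = 0.0781), and Pmvk, phosphomevalonate kinase, at 0.19 (limma adjusted p = 0.0749). Nsdhl, Ebp, Hsd17b7 and Sc4mol (now Msmo1), all of which act between lanosterol and cholesterol, were at 0.15, 0.10, 0.10 and 0.07. Fdft1, squalene synthase, and Sc5dl, a sterol desaturase, were both at 0.03. Hmgcs1 (ILMN_1376480), the synthase before the rate-limiting reductase of the pathway, ranged from 11.09 through 11.46 to 11.67 in silica rats and from 10.91 through 11.38 to 11.75 in air rats. Its difference was 0.08 ± 0.09 with a 95% interval from −0.10 to 0.26. The 3 air runs had Hmgcs1 means of 11.12, 11.53 and 11.40, and the silica mean was 11.43. Against rats 89 to 92 the difference was 0.31 (limma adjusted p = 0.0472), and against rats 105 to 108 it was −0.10. The call against rats 89 to 92 was lost without air rat 90, 91 or 92, or any of 5 silica rats.

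**Figure D2:**
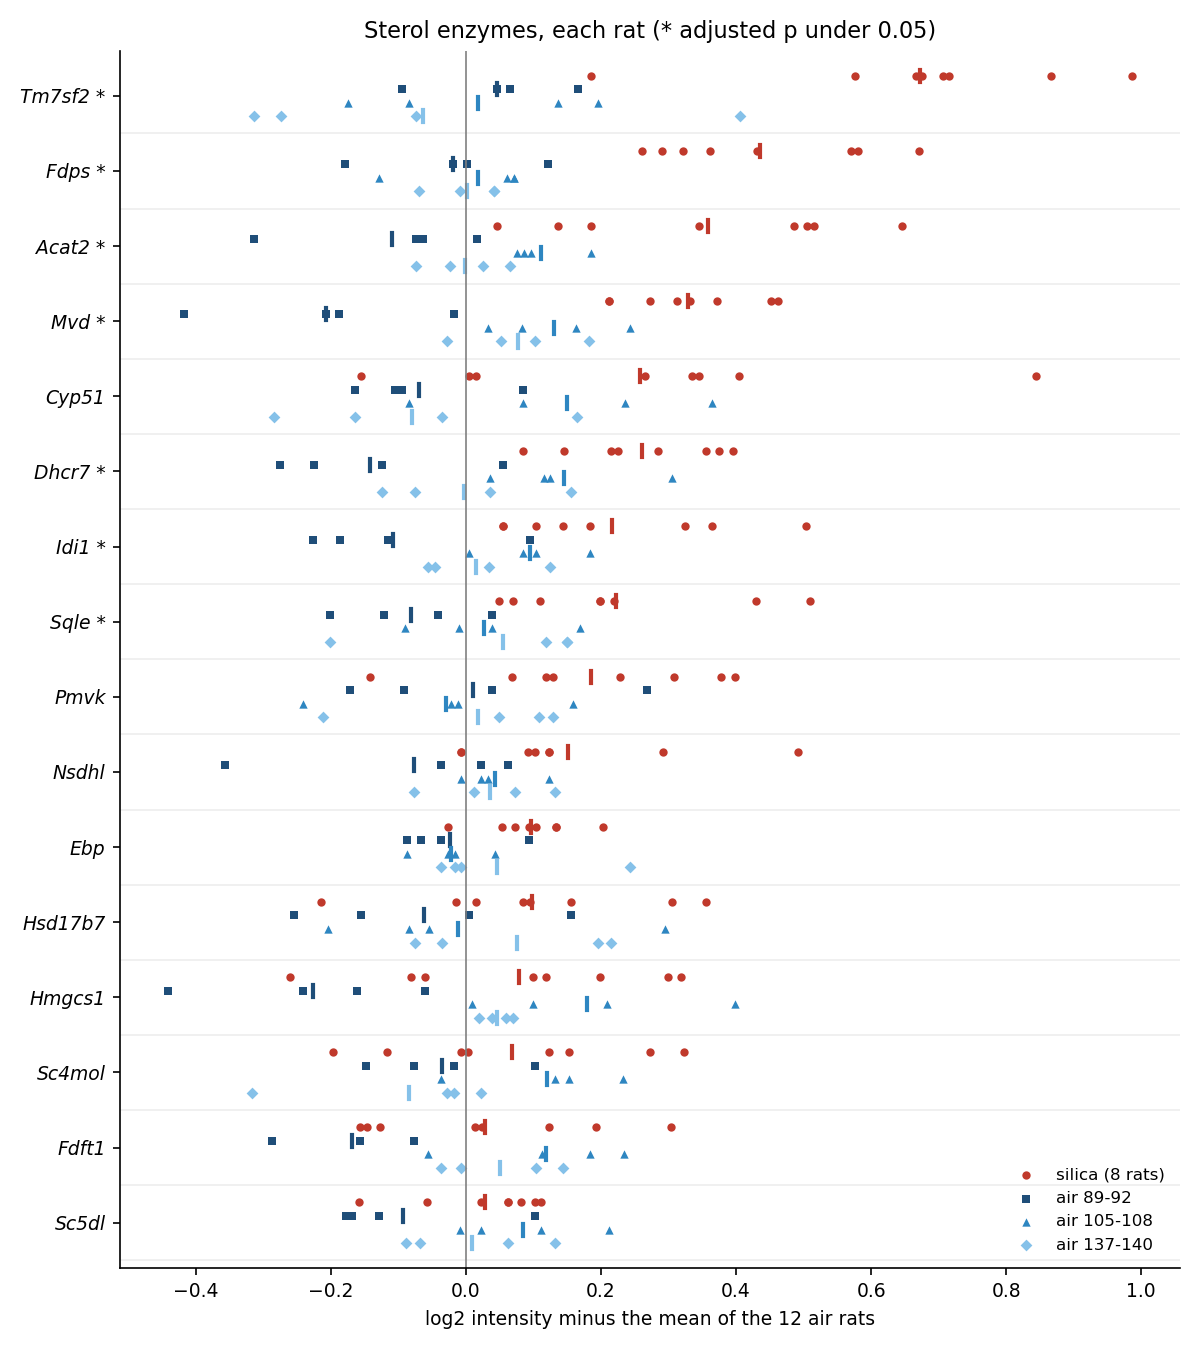
Log2 intensity of each sterol enzyme in each rat, minus the mean of the 12 air rats; circles are silica rats, the other marks the 3 air runs, and vertical ticks are group means. Fdps is the only enzyme here in which all 8 silica rats lie right of all 12 air rats.

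Air rats 89 to 92 had the lowest mean of the 3 air runs in 12 of the 16 sterol enzymes. The difference against these 4 rats exceeded that against all air rats in 14 of the 16, as it did in 5462 of all 10488 genes. Against rats 105 to 108 only Tm7sf2 and Fdps of the 16 rose and 12 of 16 values were positive. Against rats 137 to 140, 5 rose and 15 were positive.

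The regulators showed no change that passed the test, 0 of 5 in either direction by limma and 0 with an unadjusted p under 0.05, with a median of 0.09. Srebf2 (ILMN_1354176), which codes for SREBP-2, ranged from 5.66 through 6.48 to 6.78 in silica rats and from 5.86 through 6.22 to 6.61 in air rats. The difference was 0.15 ± 0.11 (limma adjusted p = 0.35). Rat 86 was the lowest of all 20 rats, and without it the difference was 0.26 (limma adjusted p = 0.0378). Srebf1 (ILMN_1363480), which codes for SREBP-1, ranged from 9.15 through 9.44 to 9.69 in silica rats and from 9.12 through 9.35 to 9.54 in air rats. Its difference was 0.09 ± 0.06 (limma adjusted p = 0.311). Stard4, which carries sterol between membranes, was at 0.12 and Scap, the escort of SREBPs, at 0.07. Insig2, which retains Scap, was at −0.09 (95% interval −0.19 to 0.02). SREBPs are controlled mainly by cleavage of the protein, which RNA does not measure.

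In fatty acid synthesis 4 of 8 genes rose (50.0%) and the median log2 fold change was 0.25, or 0.07 with the default estimate of background spread and 0.15 on the authors' deposited log2 values. Among the 4 were the rows named Scd1 and Scd, which may stand for the same gene. All 8 values were positive, 7 of them under median scaling, where 2 rose (median 0.22). With the replicate number as a block 1 rose (median 0.21). Fads2 was at 0.30 (limma adjusted p = 0.052), Acaca at 0.27 (limma adjusted p = 0.108) and Scd1 at 0.27 (limma adjusted p = 0.0576). Air rats 105 to 108 share no replicate number with a silica rat, so the block took them out of this difference. Correlations of same-numbered rats ranged from −0.228 to 0.163, which cannot show whether the numbers pair rats by design. Acaca (ILMN_1374107), acetyl-CoA carboxylase, makes the malonyl-CoA from which chains are built. It ranged from 5.75 through 6.17 to 6.34 in silica rats and from 5.38 through 5.76 to 6.16 in air rats, with a difference of 0.33 ± 0.09 (limma adjusted p = 0.00811). Acaca is dim, 4 silica rats exceeded all air rats, and with the default estimate of background spread the difference was 0.05 (limma adjusted p = 0.00641). Fads2 (ILMN_1370220), the first desaturase of polyunsaturated fatty acids, ranged from 6.41 through 6.83 to 7.25 in silica rats and from 6.30 through 6.49 to 6.71 in air rats. Of the silica rats 6 exceeded all air rats, and the difference was 0.31 ± 0.08 (limma adjusted p = 0.00541), or 0.08 with the default estimate.

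Stearoyl-CoA desaturases, which make monounsaturated fatty acids, are represented by rows named Scd1 and Scd. RefSeq gives Scd1 as the gene now called Scd. The row named Scd could stand for that gene or for its close paralog Scd2, so its identity is uncertain. Scd1 (ILMN_1374191) ranged from 12.78 through 13.24 to 13.35 in silica rats and from 12.61 through 12.80 to 13.20 in air rats. Its difference was 0.33 ± 0.08 (limma adjusted p = 0.00254), and rat 88 was lowest with 12.78, against 13.12 to 13.35 in the other silica rats. Scd (ILMN_1359586) ranged from 12.90 through 13.15 to 13.26 in silica rats and from 12.78 through 12.92 to 13.10 in air rats, a difference of 0.20 ± 0.05 (limma adjusted p = 0.00273). For each row 5 silica rats exceeded all air rats. Under median scaling the differences were 0.32 for Scd1 (limma adjusted p = 0.0561) and 0.18 for Scd (limma adjusted p = 0.247), and neither passed.

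Against air rats 89 to 92 alone 0 of the 8 fatty acid genes passed limma's test, 3 were higher with an unadjusted p under 0.05, where 10.2% of all genes tested were, and the median was 0.16. The counts were 5 against rats 105 to 108 and 2 against rats 137 to 140. The 4 genes that rose against all air rats had values of 0.22 (Acaca), 0.29 (Scd1), 0.28 (Fads2) and 0.20 (Scd) against rats 89 to 92, with limma adjusted p = 0.294, 0.0686, 0.127 and 0.0568. Elovl5 (ILMN_1349146), an elongase of polyunsaturated fatty acids, ranged from 7.34 through 7.66 to 7.83 in silica rats and from 6.83 through 7.46 to 7.78 in air rats. Its difference was 0.30 ± 0.12 (limma adjusted p = 0.0598) against all air rats and 0.01 against rats 89 to 92, but 0.42 (limma adjusted p = 0.0319) and 0.47 (limma adjusted p = 0.0136) against the other runs. The air means of Elovl5 were 7.61, 7.21 and 7.16. Acss2, which activates acetate, Fads1, a further desaturase, and Acly, which makes cytosolic acetyl-CoA from citrate, were at 0.11, 0.06 and 0.05 and did not pass.

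**Figure D3:**
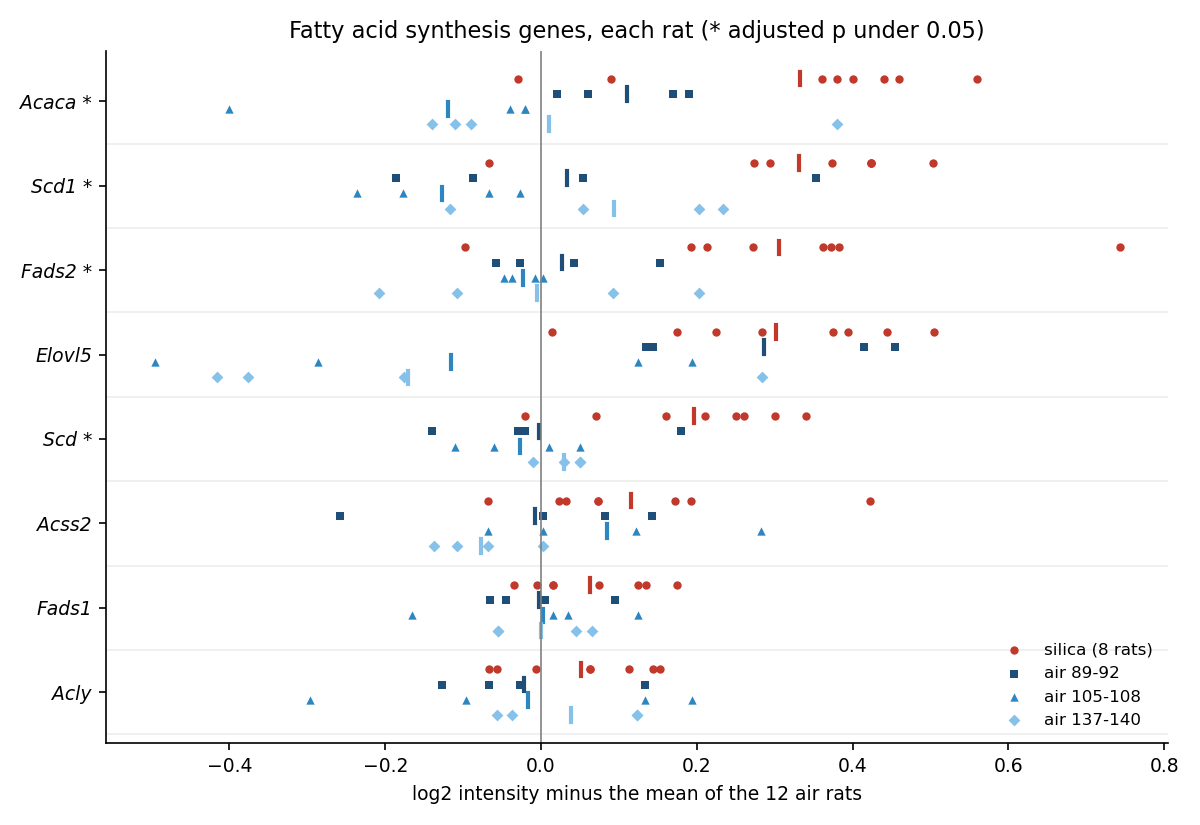
Log2 intensity of each fatty acid synthesis gene in each rat, minus the mean of the 12 air rats; circles are silica rats, the other marks the 3 air runs, and vertical ticks are group means. Every gene shows overlap of silica and air rats, and air rats 89 to 92 lie among the silica rats for Elovl5.

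Of the oxysterol and LXR genes 5 of 9 rose (55.6%), with a median log2 fold change of 0.28, or 0.08 with the default estimate of background spread and 0.16 on the authors' deposited log2 values. Ch25h (ILMN_1367421), cholesterol hydroxylase, makes the oxysterol that both restrains SREBPs and acts on LXR. It is known as an interferon-responsive gene of macrophages in mice. Its log2 intensity was 8.62, 8.03, 8.57, 8.52, 8.24, 7.71, 8.71 and 8.31 in silica rats 81 to 88. In air rats it was 7.10, 6.66, 7.54 and 6.82 in rats 89 to 92, 6.73, 6.42, 7.09 and 6.25 in rats 105 to 108, and 6.69, 6.44, 6.57 and 6.41 in rats 137 to 140. The lowest silica rat, 86, lay above the highest air rat, 91. Means were 8.34 ± 0.34 in silica (SD, n = 8) and 6.73 ± 0.37 in air lungs (SD, n = 12), a log2 fold change of 1.61 ± 0.15 (limma adjusted p = 2.55e-08) or 3.06-fold. The difference was 1.31 (limma adjusted p = 5.59e-05), 1.72 and 1.81 against the 3 air runs. With the default estimate of background spread it was 0.85, and on the authors' deposited log2 values 1.08, both called.

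Abcg1 and Abca1, exporters of cellular cholesterol and classical LXR targets, rose by less. Abcg1 (ILMN_1354046) ranged from 12.29 through 12.34 to 12.53 in silica rats and from 11.59 through 11.98 to 12.33 in air rats, with 5 silica rats above all air rats. The difference was 0.38 ± 0.07 (limma adjusted p = 0.000542). Abca1 (ILMN_1650701) ranged from 8.29 through 8.58 to 8.68 in silica rats and from 8.05 through 8.23 to 8.46 in air rats, with 6 silica rats above all air rats. The difference was 0.28 ± 0.06 (limma adjusted p = 0.001), and under median scaling it was 0.23 (adjusted p = 0.0778). Against air rats 89 to 92 alone neither Abcg1 (0.26, limma adjusted p = 0.109) nor Abca1 (0.16, limma adjusted p = 0.18) passed.

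Osbp and Soat1 rose as well. Osbp (ILMN_1361792), an oxysterol-binding protein that moves cholesterol to the Golgi, ranged from 6.54 through 6.78 to 6.96 in silica rats and from 5.98 through 6.44 to 6.75 in air rats. The difference was 0.38 ± 0.09 (limma adjusted p = 0.00451), with 5 silica rats above all air rats. The Osbp air means were 6.64, 6.45 and 6.13, and the difference was 0.15 (limma adjusted p = 0.372) against rats 89 to 92 and 0.66 against rats 137 to 140. Soat1 (ILMN_1350250), which esterifies cholesterol for storage, ranged from 6.11 through 6.29 to 6.56 in silica rats and from 5.49 through 5.94 to 6.38 in air rats. The difference was 0.38 ± 0.11 (limma adjusted p = 0.0116) and 0.13 (limma adjusted p = 0.625) against rats 89 to 92. With the default estimate of background spread Osbp was at 0.09 and Soat1 at 0.06, both called.

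The 4 other genes of this set did not pass. Nr1h3, which codes for LXR alpha, was at 0.07 (limma adjusted p = 0.187) and Nr1h2, which codes for LXR beta, at −0.08. Apoe, an acceptor of exported cholesterol and an LXR target, was at −0.05 with a 95% interval from −0.19 to 0.10. Mylip, an LXR target that directs degradation of lipoprotein receptors, was at 0.11. Of the LXR targets Abca1, Abcg1, Apoe, Mylip and Srebf1, the exporters Abca1 and Abcg1 passed and the other three did not. Air rats 89 to 92 had the highest mean of the air runs in 8 of the 9 oxysterol genes. Ch25h was the only one of the 9 that rose against them (11.1%), where 4.15% of all genes rose.

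**Figure D4:**
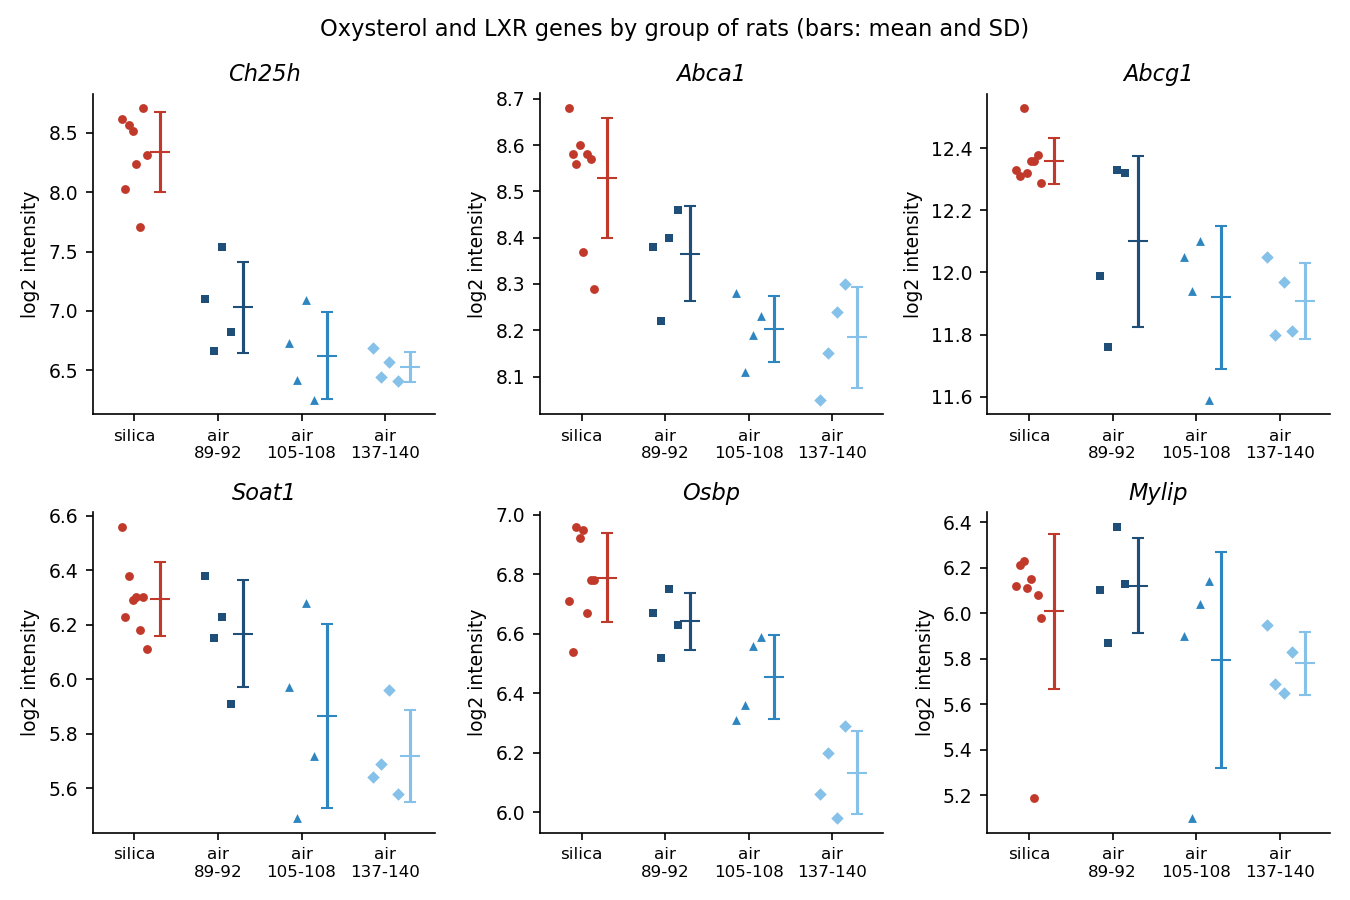
Log2 intensity of Ch25h, Abca1, Abcg1, Soat1, Osbp and Mylip in silica rats and in the 3 runs of air rats, 1 point per rat; bars are group means and SD. All silica rats lie above all air rats for Ch25h, while for Abca1, Abcg1, Osbp and Soat1 the mean of air rats 89 to 92 is the highest of the 3 air runs.

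Rats were also compared within each group for whether those with more Ch25h had more of another gene. Insig1 had no row, so 37 relations in each group, 74 in all, were computed with Ch25h alone. In silica rats (n = 8) Pearson's r ranged from −0.49 to 0.96 with a median of 0.37, and 7 had a raw exact permutation p under 0.05. Elovl5 alone passed adjustment over the 74, with r = 0.96 (exact permutation p = 0.000422, adjusted 0.0312) and rho = 0.88 (exact permutation p = 0.00724, adjusted 0.134). Without rats 82 and 86, farthest from the median of Ch25h, r for Elovl5 was 0.87. Among the others of the 7, r then went from 0.76 to 0.30 for Tm7sf2, 0.76 to 0.21 for Dhcr7, 0.73 to 0.29 for Srebf2 and 0.72 to 0.25 for Mvd. For Hsd17b7 it went from 0.85 to 0.65 and for Srebf1 from 0.81 to 0.52. In air rats (n = 12) r ranged from −0.78 to 0.79 with a median of −0.07, 6 had a raw p under 0.05 and 0 passed. The furthest from 0 were Soat1 (r = 0.79, permutation p = 0.00145, adjusted 0.0536; rho = 0.78), Hmgcs1 (r = −0.78, p = 0.00274, adjusted 0.061; rho = −0.76) and Abcg1 (r = 0.77, p = 0.0033, adjusted 0.061; rho = 0.83). Without air rats 89 and 91 they were 0.76, −0.60 and 0.76. With the mean of each air run subtracted, r ranged from −0.80 to 0.72 with a median of 0.02, 3 of 37 had a raw exact permutation p under 0.05 (permuted within runs) and 0 passed. It was 0.65 for Soat1 (p = 0.0646), −0.75 for Hmgcs1 (p = 0.0462) and 0.72 for Abcg1 (p = 0.0472), each with an adjusted exact p of 0.407. This check was added after seeing the data. The difference between silica and air rats in these relations was not tested.

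**Figure D5:**
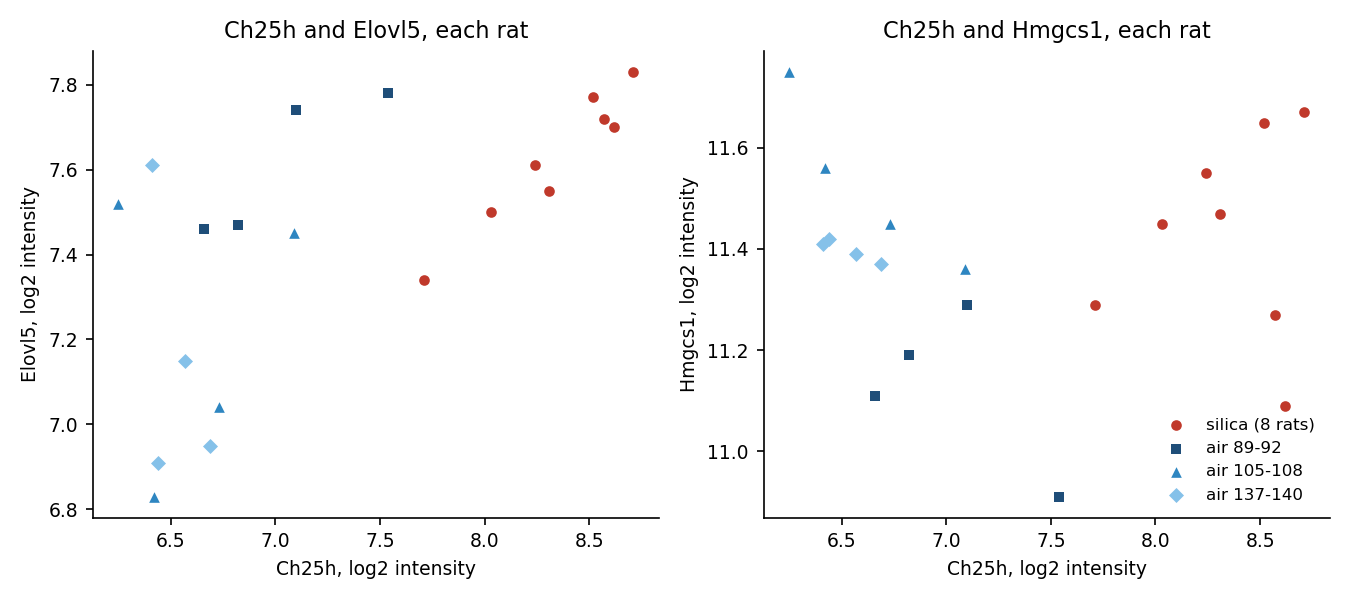
Ch25h against Elovl5 (left) and Hmgcs1 (right), log2 intensity, 1 point per rat, with silica rats and the 3 air runs marked apart. Silica rats with higher Ch25h have higher Elovl5 (r = 0.96), and the relation with Hmgcs1 in air rats (r = −0.78, permutation adjusted p = 0.061) did not pass.

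By rat, 11 to 16 of the 16 sterol enzymes were above the air mean in silica rats, the fewest in rats 88 (11) and 82 (12). In air rats 2 to 13 were, the most in rats 106 (13) and 108 (12), so the groups overlapped on this count.

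Of 74 further genes of the same pathways, 47 were tested, of which 11 rose (23.4%), 2 fell and 34 did not pass, with a median of 0.06, where 11.7% of all genes tested rose and 12.7% fell. Of the 47, 6 rose (12.8%) and 0 fell against air rats 89 to 92 alone, where 4.15% of all genes rose and 3.18% fell. These were Stard3, Me1, Slc25a1, Nceh1, Osbpl8 and Lpcat3, all among the 11. They too were listed with earlier results of these data known, and the share was not tested against that of the 38. In sterol handling 3 of 17 tested rose, 1 fell and 13 did not pass (median 0.05). Npc2 (0.21 ± 0.05), which carries cholesterol out of lysosomes, and Stard3 (0.14 ± 0.04), a late endosomal sterol carrier, rose. Lipa (0.39 ± 0.14), lysosomal acid lipase, rose too, but passed against none of the 3 air runs alone (limma adjusted p = 0.43, 0.19 and 0.0777). Mbtps1 (−0.16 ± 0.05), a protease that cleaves SREBPs, fell. In fatty acid synthesis 5 of 17 tested rose, 1 fell and 11 did not pass (median 0.09). Me1 (0.31 ± 0.06), which supplies NADPH, Slc25a1 (0.21 ± 0.05), the mitochondrial citrate carrier, and Gpam (0.26 ± 0.08), the first acyltransferase of glycerolipids, rose. So did Mlx (0.21 ± 0.07), a transcription factor partner, and Hacd2 (0.18 ± 0.05), of the elongation cycle. Mid1ip1 (−0.12 ± 0.04), an activator of acetyl-CoA carboxylase, fell. Among oxysterol and LXR genes Nceh1 (0.63 ± 0.08), which hydrolyses cholesterol esters in macrophages, Osbpl8 (0.47 ± 0.07), an oxysterol-binding protein relative, and Lpcat3 (0.24 ± 0.05), an LXR target that remodels phospholipids, rose. The other 10 of the 13 tested in this list did not pass, among them Pltp (0.03 ± 0.04) and Apoc1 (0.20 ± 0.24). The median of the 13 was 0.04. All 8 silica rats exceeded all air rats for Nceh1 and Lpcat3.

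Markers of several cell types moved with the comparison, in which 11.7% of all genes tested rose. Of 9 type 2 cell markers tested 5 rose (median 0.22), and their summed intensity was 86200 to 94100 in silica and 77000 to 90500 in air rats. Of 9 alveolar macrophage markers 6 rose (median 0.36), with sums of 20500 to 24600 in silica rats, 15100 to 21300 in air rats 89 to 92 and 14100 to 17700 in the other air rats, and against rats 89 to 92 alone 2 rose (median 0.24). The largest part of each sum was Lpl, whose median intensity before correction was 12200 in silica and 9920 in air rats. Fabp4 (0.06), Siglec5 (0.10) and Pparg (0.17) did not pass. Of 9 monocyte and recruited macrophage markers 4 rose (Cd14, Arg1, Lgals3 and Itgam), with sums of 16400 to 19100 in silica and 9360 to 16100 in air rats. Most of each sum was Lgals3, whose median intensity before correction was 14000 in silica and 9910 in air rats. Spp1 (0.73), Ccr2 (0.16), Cx3cr1 (0.10), Fcgr3a (−0.04) and Adgre1 (−0.17) did not pass. Of 9 neutrophil markers tested 7 rose, with sums of 5560 to 7690 in silica and 2240 to 3410 in air rats, although S100a9 and Mpo were detected on 0 arrays. Much of the gap between these sums was Cd177, whose median intensity before correction was 2830 in silica and 441 in air rats. For Lcn2 it was 896 and 200. S100a8 rose by 0.37, and Fcnb (−0.07) and Mmp8 (0.26) did not pass. Of 7 markers of dividing cells 5 rose (median 0.49), with sums of 1510 to 1650 in silica and 895 to 1210 in air rats. The adipocyte genes Adipoq, Lep, Plin1 and Retn were detected on 0 arrays, and of the 2 adipocyte genes tested 1 rose. Against air rats 89 to 92 alone 3 type 2 cell, 3 monocyte, 5 neutrophil and 5 dividing cell markers rose. Over all genes 4.15% rose in that comparison. The part of these markers in the results was not tested.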

How the data were processed

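Lung RNA of 20 rats (8 silica, 12 air) was measured with 1 Illumina bead array per rat. The deposited table gives a mean bead intensity per gene and array, with BeadStudio named in the submitters' processing notes, and judging from the values the intensities are neither background-subtracted nor normalized. The authors also deposited a detection p-value and the number of beads (a count, median 40 to 43) for each intensity. The authors' deposited log2 values, used as an alternative, are normalized; lumi and limma appear in the notes without a stated role, and the transformation is unknown. The array's genome build is not stated in the sources used. A further 20 columns (bead standard errors) were not used.

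With limma 3.58.1 in R 4.3.3, background was corrected by normexp (offset 16), with the mean and SD of the negative controls inferred from detection p-values of the 21109 genes measured by 1 probe, and log2 values were quantile-normalized. The test covered 10488 genes whose detection p was under 0.01 on 8 or more arrays, with lmFit and eBayes (intensity trend, 2-sided, Benjamini-Hochberg). The offset draws differences of dim genes toward 0. Air runs were compared in a model of 4 groups. Correlations used exact permutation over 8 silica rats and 100000 resamples (1e+05) over 12 air rats. Relations within air runs used all 13824 permutations within runs. All 38 genes are accounted for: values are given for each gene that passed and for Ch25h, Abca1, Abcg1, Srebf1 and Srebf2, and the others by value or count; Hmgcs1 and Elovl5 ranges were added after their values were seen. The members and lists were chosen with earlier results of these data known. Replicate numbers were not used as pairs in the reported fit. Correlations of same-numbered rats ranged from −0.228 to 0.163, which does not settle whether the design paired them. The labels give 1 animal per array; the number of arrays limits the precision. The fit of silica against all air rats and the correlations were tested on simulated data; the model of 4 groups was not.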

Additional observations from a re-analysis of the deposited data

Results flagged for a closer look

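In 51 genes (the 38 members and the 13 further pathway genes that passed), 6 had a silica rat far from the other 7: its gap to the nearest rat, as a share of the range, was above Dixon's 95% critical value for 8 samples. Chance flags about 1 in 20 groups. Rat 86 was lowest for Mylip (5.19, others 5.98 to 6.23; ratio 0.759) and for Srebf2 (5.66, others 6.32 to 6.78; ratio 0.593). Rat 83 was highest for Abcg1 (12.53, others 12.29 to 12.38; ratio 0.627) and for Npc2 (14.44, others 14.11 to 14.26; ratio 0.573). Rat 88 was lowest for Scd1 (12.78, others 13.12 to 13.35; ratio 0.6), and rat 82 for Me1 (6.80, others up to 7.15; ratio 0.574). Rat 86 also had the fewest genes detected among silica rats (9480) and the highest median intensity (98.6). Its part in these values was not tested.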

How the results depend on the processing

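Of the 38 genes 16 rose, and 16 to 18 did when each rat was left out in turn (sterol enzymes 7 to 8, regulators 0 to 1, fatty acid genes 4 to 5, oxysterol genes 5 to 5); over all genes these fits called 1072 to 1315 higher and 1110 to 1448 lower. Against air rats 89 to 92 alone 9 rose, 6 to 11 with a rat left out and 8 in a fit of those 12 arrays, which was added after seeing the data. Idi1 and Sqle lost that call without air rat 89 or 90, Sqle also without silica rat 85. In the same comparison Scd and Scd1 gained a call without air rat 92 or silica rat 88, Scd also without silica rat 86, Abcg1 without air rat 91 and Fads2 without silica rat 88. Against all air rats Elovl5 gained a call without air rat 89, 91 or 140 or silica rat 86, Cyp51 without silica rat 88 or air rat 107, Pmvk without silica rat 83 or air rat 89, Ebp without air rat 138 and Srebf2 without silica rat 86. Median scaling gave 10 genes (sterol 4, fatty acid 2) and 571 higher and 817 lower over all genes. Other air rats gave 435 higher and 333 lower over all genes against rats 89 to 92 (fatty acid 0, oxysterol 1). Sterol was 2 against rats 105 to 108, with 881 higher over all genes. Fatty acid was 2 against rats 137 to 140, with 1153 higher over all genes. The replicate block, which took air rats 105 to 108 out of the difference, gave 14 rises, with 826 higher and 713 lower over all genes. Its fatty acid count was 1, without Acaca at 0.27, Fads2 at 0.30 and Scd1 at 0.27, and Cyp51 gained a call. No gene changed direction as a call under any setting run. Default background spread, no correction, offset 50, the authors' log2 values, no trend and no filter each gave the same 16 calls. Cyclic loess and array weights gave 18 each. Detection on all 20 arrays left 13 calls among fewer genes tested. The air-run and scaling causes were not tested. Between the reported and the default background spread, log2 fold changes moved from 0.67 to 0.14 for Tm7sf2, 0.38 to 0.09 for Osbp, 0.31 to 0.08 for Fads2 and 1.61 to 0.85 for Ch25h, so sizes depend on this choice also in genes detected on all arrays.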
